A study of Homo sapiens with 24 samples.

Results

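Genes of prostaglandin synthesis, signalling and breakdown were followed across 24 RNA-seq libraries of clear cell renal carcinoma cells: the cyclooxygenases PTGS1 and PTGS2, the terminal synthases PTGES, PTGES2, PTGES3 and PTGIS, the prostaglandin E2 receptors PTGER2 and PTGER4, and the breakdown enzymes HPGD and PTGR1. They were chosen by name and are 10 of the 26475 genes listed for each library. Earlier results of these data had already shown that PTGES responded very differently in the 2 lines, so every value of the shPAX8 against sgNTC18 comparison below is a description without a test for these genes. All 10 were among the 15665 genes with enough counts to be tested. The libraries came from 786-M1A and OS-LM1, metastatic derivatives of the VHL-mutant lines 786-O and OS-RC2 that also carry a luciferase reporter. Each line carried the non-targeting CRISPR guide sgNTC18 or one of the hairpins shPAX8-1 and shPAX8-2 against PAX8, a transcription factor of the renal lineage, with 4 replicate libraries in each of the 6 groups. The hairpins sat on doxycycline-inducible plasmids by the methods of the study. All cells were grown in RPMI medium with 10% fetal bovine serum. No library with a control hairpin was analysed here, so PAX8 depletion cannot be told apart from the difference between a CRISPR guide and a hairpin vector, and each line is a single line.

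Prostaglandins are made from arachidonic acid, which phospholipases release from membranes and the cyclooxygenases turn into prostaglandin H2. Terminal synthases then make prostaglandin E2, prostacyclin or other prostanoids, which act on cells through G protein-coupled receptors. Hydroxyprostaglandin dehydrogenase and prostaglandin reductases inactivate them. In the kidney, prostaglandin E2 is known for its part in blood flow and salt and water handling.

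The hairpins matched PAX8 at different places. The guide strands, given 5′ to 3′ with the seed (bases 2 to 8) in capitals, are shown because the constructs differed in several of the genes below.
shPAX8-1: tGTGAGTCaatgcttagtcggc
shPAX8-2: tAGAGTTGtgttaataatggag
The site of shPAX8-1 lay in coding sequence in exon 7 of the 12 exons of PAX8, at chr2:113241690-113241711 (hg38, minus strand), and that of shPAX8-2 in the 3′ untranslated part of exon 12, at chr2:113218122-113218143 on the same strand. Each guide had 1 perfect match on the chromosome.

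PAX8 itself was measured first. Expression is given as counts-per-million values (CPM) after scaling for library composition. In 786-M1A, PAX8 stood at 292, 393, 360 and 319 CPM in the sgNTC18 libraries, at 22.9, 21.9, 15.2 and 14.8 CPM with shPAX8-1 and at 41.4, 45.5, 42.6 and 40.0 CPM with shPAX8-2. OS-LM1 libraries stood at 262, 279, 245 and 254 CPM with sgNTC18, at 85.6, 78.4, 59.8 and 89.2 CPM with shPAX8-1 and at 76.2, 63.8, 97.0 and 79.9 CPM with shPAX8-2. Every hairpin library was below every sgNTC18 library of its line. The fitted decrease was larger in 786-M1A (log2 fold change -3.60 ± 0.12 SE) than in OS-LM1 (-1.72 ± 0.12 SE), a difference of 1.87 with an adjusted p of 7.53e-10 in edgeR's quasi-likelihood test with Benjamini-Hochberg adjustment.

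Library totals ran from 11634419 to 52059375 counts. Of the renal and clear cell carcinoma markers, PAX2, CDH6, VIM and EPAS1 were found in all libraries, whereas CA9 and NDUFA4L2 were at or below 0.647 CPM throughout 786-M1A. The T cell marker CD3E and the B cell marker MS4A1 were at 0 in all 24 libraries and PTPRC reached 0.317 CPM, whereas CD68, the other leukocyte marker examined, was at 76.5 to 399 CPM in all libraries. The endothelial PECAM1, VWF and CDH5 stayed below 0.777 CPM or at it. The fibroblast markers differed by line, with PDGFRB at 189 to 877 CPM in 786-M1A and at most 1.25 CPM in OS-LM1, COL1A1 at 1.97 to 11.8 CPM in 786-M1A and 13.9 to 205 CPM in OS-LM1, and DCN at or below 1.17 CPM in both. In bulk libraries, fewer cells expressing a gene and less of its RNA per cell cannot be told apart. The 4 shPAX8-1 libraries of 786-M1A fell into pairs. Replicates 1 and 2 differed by a mean chi-square of 14.1 per gene and replicates 3 and 4 by 3.73, against 44.7 to 77.4 between the pairs. Values were also high in OS-LM1 shPAX8-2, at 89.5 between replicates 3 and 4 and 59.7 between replicates 2 and 3. Totals in that group ran from 14567945 to 52059375 counts. Nothing in the sources used here says whether replicates were separate cultures, so p-values measure the spread between these libraries, which may be technical.

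On a scale corrected for transcript length (TPM, transcripts-per-million, as deposited), PTGES3 was the most abundant of the 10 genes in the sgNTC18 libraries of both lines, at 450.2 TPM on average in 786-M1A and 475.5 TPM in OS-LM1. The next in 786-M1A were PTGES at 117.9 TPM, PTGES2 at 47.5 TPM and PTGR1 at 26.6 TPM. In OS-LM1 PTGR1 came second at 29.2 TPM, ahead of PTGES2 at 23.55 TPM, while PTGES stood at 4.1 TPM. The ranges of PTGS2 (7.6 to 8.86 TPM) and PTGER2 (7.29 to 8.8 TPM) overlapped in OS-LM1 sgNTC18 libraries, as did those of HPGD (3.81 to 4.3 TPM) and PTGES (3.73 to 4.68 TPM). PTGS2 and PTGIS were lowest in 786-M1A, at 0.06 and 0.21 TPM.

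**Figure D1:**
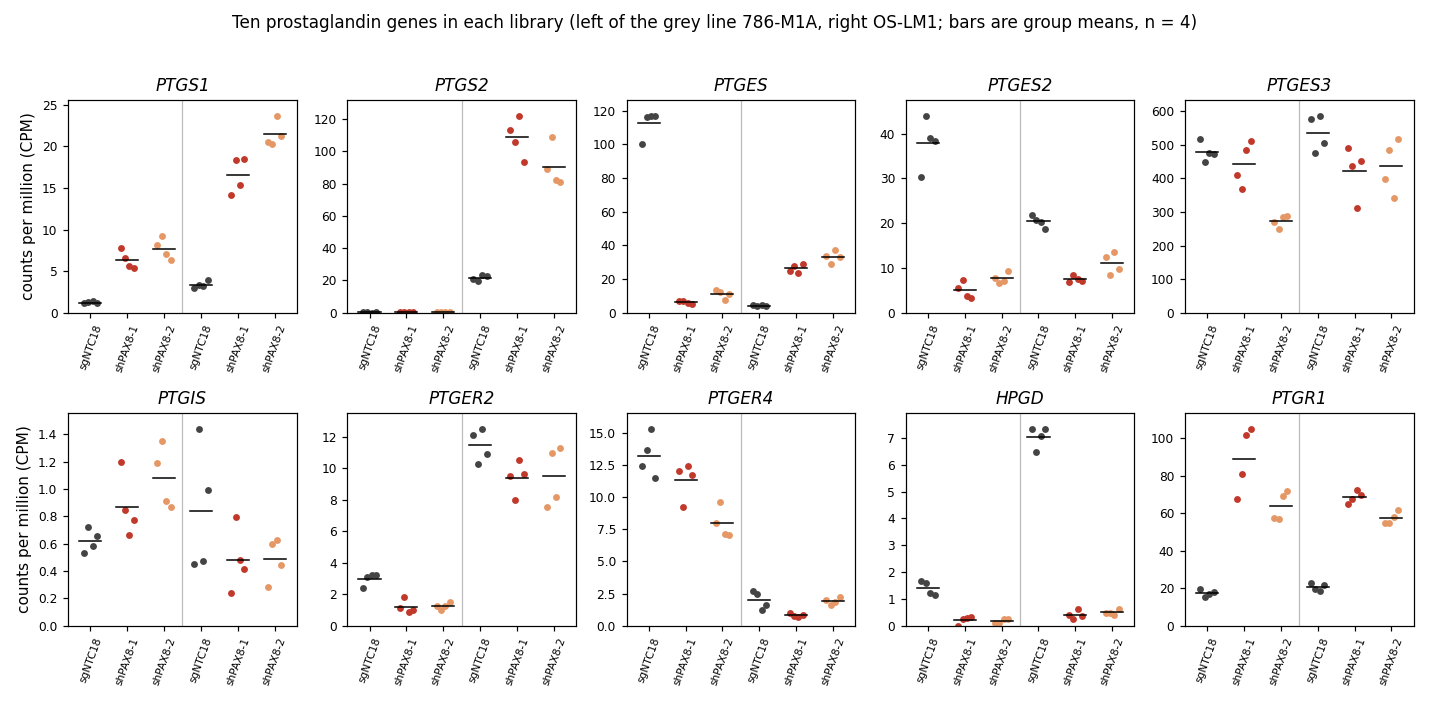
Expression of the 10 genes in every library, in CPM on linear axes that start at 0. Each point is 1 library, each black line the mean of 4 libraries, and the grey line separates 786-M1A (left) from OS-LM1 (right). PTGES was at 100 to 117 CPM in 786-M1A sgNTC18 libraries and at 4.97 to 13.3 CPM in the hairpin libraries, with the opposite order in OS-LM1.

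The main feature of the set was PTGES, the inducible microsomal synthase that makes prostaglandin E2 from prostaglandin H2. In 786-M1A it was at 100, 116, 117 and 117 CPM with sgNTC18, at 7.06, 6.69, 5.48 and 4.97 CPM with shPAX8-1 and at 13.3, 12.5, 7.71 and 11.1 CPM with shPAX8-2. OS-LM1 libraries stood at 4.73, 3.78, 4.23 and 3.83 CPM with sgNTC18, at 24.9, 27.9, 23.3 and 29.1 CPM with shPAX8-1 and at 33.4, 29.1, 37.3 and 33.1 CPM with shPAX8-2. Hairpin and sgNTC18 libraries did not overlap in either line, but the hairpin libraries were lower in 786-M1A and higher in OS-LM1. The log2 fold change was -3.77 ± 0.11 (SE) in 786-M1A and 2.83 ± 0.13 (SE) in OS-LM1. With each library's trend over GC content removed, these values were -3.43 and 3.21. In the main fit the difference between the lines was 6.60 on the log2 scale. A difference of that size or larger was found for 72 genes with PTGES counted, 0.46% of those tested. PTGES was chosen for this difference, so nothing is read from that share. Both hairpins gave the same direction in a line, with -4.21 and -3.32 in 786-M1A and 2.66 and 3.0 in OS-LM1 for shPAX8-1 and shPAX8-2. The order of the lines turned over with it: sgNTC18 libraries were 27.1-fold higher in 786-M1A and hairpin libraries 3.58-fold higher in OS-LM1.

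PTGES lies at chr9:129738349-129753042 on the minus strand (GRCh38.p14). The 250 bases before its RefSeq start, at chr9:129753043-129753292, are shown beside those of PTGS2 at chr1:186680424-186680673 (also on the minus strand, GRCh38.p14), since PTGES moved in opposite directions in the lines and PTGS2 was abundant in 1 line alone. Capitals mark any match, on either strand, to the early growth response core CGTGGGC, the GC box GGGCGG, the hypoxia response core ACGTG, the PAX paired-domain core GCGTGAC or the TATA box TATAAA.
PTGES: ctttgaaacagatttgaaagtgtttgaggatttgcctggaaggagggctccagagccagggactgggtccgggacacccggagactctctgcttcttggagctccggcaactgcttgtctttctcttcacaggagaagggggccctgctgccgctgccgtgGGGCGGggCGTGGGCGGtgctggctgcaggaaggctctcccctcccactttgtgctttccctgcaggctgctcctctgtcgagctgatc
PTGS2: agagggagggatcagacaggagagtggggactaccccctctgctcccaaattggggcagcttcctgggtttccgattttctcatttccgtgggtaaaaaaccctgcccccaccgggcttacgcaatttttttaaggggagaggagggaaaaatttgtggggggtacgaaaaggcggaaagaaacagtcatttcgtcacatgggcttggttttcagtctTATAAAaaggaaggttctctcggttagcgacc
The PTGES stretch held 2 GC boxes, starting 89 and 78 bases before the start, and an early growth response core starting 81 bases before it, which overlaps the second GC box. The PTGS2 stretch held a TATA box 32 bases before the start. Of 35116 RefSeq stretches of this length, 42.6% held a GC box, 4.85% the early growth response core, 18.5% the hypoxia core, 10.7% the TATA box and 2.2% the PAX core. Stretches were found for 9 of the 10 genes (13 stretches, PTGIS not among them), and none of the 13 held the PAX core; such matches describe letters and not binding.

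The cyclooxygenases were both higher in hairpin libraries of OS-LM1. PTGS1, the constitutive form, was at 1.11, 1.22, 1.39 and 1.10 CPM in 786-M1A sgNTC18 libraries and at 5.41 to 9.23 CPM (median 6.80) in the 8 hairpin libraries. In OS-LM1 it went from 2.93, 3.34, 3.20 and 3.92 CPM to between 14.2 and 23.7 CPM (median 19.4). The groups were apart in both lines and the change was of nearly the same size, with log2 fold changes of 2.53 ± 0.15 (SE) and 2.50 ± 0.13 (SE). PTGS2, the inducible form, was almost absent from 786-M1A, at 0, 2, 2 and 9 counts per library with sgNTC18, 5, 8, 10 and 10 with shPAX8-1 and 1, 2, 3 and 4 with shPAX8-2. OS-LM1 libraries stood at 21, 19.5, 23 and 22.5 CPM with sgNTC18, at 113, 106, 122 and 93.6 CPM with shPAX8-1 and at 88.9, 109, 82.3 and 81.0 CPM with shPAX8-2. The OS-LM1 groups did not overlap and the log2 fold change was 2.20 ± 0.15 (SE), a 4.61-fold higher level. In 786-M1A the groups overlapped, and the fitted log2 fold change of 0.93 ± 0.51 (SE) moved to 2.17 without sgNTC18 replicate 4 and to 0.40 without sgNTC18 replicate 3. Thus OS-LM1 hairpin libraries had PTGS1, PTGS2 and PTGES all above their sgNTC18 libraries, and in 786-M1A PTGS1 alone of the 3 was clearly above.

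The other synthases went different ways from PTGES. PTGES2, a second membrane-associated prostaglandin E synthase, was at 30.4, 44, 39.1 and 38.3 CPM in 786-M1A sgNTC18 libraries and at 3.31 to 9.26 CPM (median 6.87) in hairpin libraries. OS-LM1 values were 21.9, 20.7, 20.2 and 18.7 CPM against 6.85 to 13.6 CPM (median 8.36). Hairpin libraries were lower without overlap in both lines, by -2.61 ± 0.15 (SE) and -1.17 ± 0.15 (SE) on the log2 scale. PTGES2 transcripts had a GC content of 59.2%, and log2 fold changes in OS-LM1 correlated with GC content across genes (Spearman rho -0.306 over 15226 genes, which are not independent). After removing this GC trend within each library, the OS-LM1 value was -0.73 and the 786-M1A value -2.21. PTGES3, known both as the cytosolic prostaglandin E synthase and as the HSP90 co-chaperone p23, was at 449 to 519 CPM in 786-M1A sgNTC18 libraries, at 370 to 512 CPM with shPAX8-1 and at 250 to 287 CPM with shPAX8-2. In OS-LM1 it was at 476 to 587 CPM with sgNTC18 and at 312 to 519 CPM with the hairpins. Its groups overlapped in both lines, and the OS-LM1 log2 fold change of -0.32 became -0.52 with the GC trend removed. PTGES3 has processed pseudogenes that could share its reads. PTGIS, prostacyclin synthase, stayed under 1.44 CPM or at it in every library, at 3.84 to 49.2 counts, and its groups overlapped in both lines.

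The receptors were lower in hairpin libraries only in part. PTGER2, the Gs-coupled EP2 receptor, was at 2.38, 3.10, 3.24 and 3.25 CPM in 786-M1A sgNTC18 libraries and at 0.843 to 1.84 CPM (median 1.20) in hairpin libraries, with no overlap and a log2 fold change of -1.28 ± 0.18 (SE). In OS-LM1 its sgNTC18 values of 10.3 to 12.5 CPM overlapped the hairpin values of 7.56 to 11.3 CPM. PTGER4, the EP4 receptor, was at 12.4, 13.7, 15.3 and 11.5 CPM in 786-M1A sgNTC18 libraries, at 12.0, 9.23, 12.4 and 11.7 CPM with shPAX8-1 and at 8.02, 9.60, 7.13 and 7.06 CPM with shPAX8-2. OS-LM1 libraries stood at 2.68, 2.49, 1.20 and 1.60 CPM with sgNTC18, at 1.02, 0.794, 0.642 and 0.873 CPM with shPAX8-1 and at 2.03, 1.61, 1.81 and 2.24 CPM with shPAX8-2. A different hairpin therefore gave the low PTGER4 values in each line. RefSeq places the gene TTC33 on the opposite strand across part of PTGER4, and ZNF483 opposite PTGR1; whether strand was used in counting is not given in the sources used here.

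The breakdown enzymes moved apart in the same way in both lines. HPGD, which oxidises and so inactivates prostaglandin E2, was at 1.68, 1.60, 1.23 and 1.14 CPM in 786-M1A sgNTC18 libraries and at 0 to 0.331 CPM in hairpin libraries, where it had 0 to 6 counts. In OS-LM1 it was at 7.33, 6.47, 7.07 and 7.32 CPM with sgNTC18, at 0.389, 0.265, 0.642 and 0.379 CPM with shPAX8-1 and at 0.490, 0.478, 0.417 and 0.640 CPM with shPAX8-2. No hairpin library reached the lowest sgNTC18 library of its line, and the log2 fold change was -2.83 ± 0.31 (SE) in 786-M1A and -3.91 ± 0.23 (SE) in OS-LM1. PTGR1, which reduces oxidised prostaglandins, was at 19.7, 15.6, 17.0 and 17.9 CPM in 786-M1A sgNTC18 libraries and at 56.7 to 105 CPM (median 70.6) in hairpin libraries. OS-LM1 values were 22.7, 19.7, 18.4 and 21.5 CPM against 54.6 to 72.6 CPM (median 63.6). Hairpin libraries were higher without overlap in both lines, by 2.10 ± 0.11 (SE) and 1.61 ± 0.11 (SE) on the log2 scale. With the GC trend removed the PTGR1 values were 1.94 and 1.40.

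Counted together, hairpin and sgNTC18 libraries did not overlap for 6 of the 10 genes in 786-M1A, where 44.3% of all tested genes did so, and for 6 of the 10 in OS-LM1, where 50.1% did. The comparison was the one that led to the choice of these genes, so nothing is read from these counts. PTGS1 and PTGR1 were higher and PTGES2 and HPGD lower in both lines (21.7% of all genes were apart in both lines in the same direction), and PTGES was the single member apart in opposite directions (3.89% of all genes). The median log2 fold change of the 10 genes was -0.47 in 786-M1A and -0.30 in OS-LM1, against 0.01 and -0.01 over all genes.

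**Figure D2:**
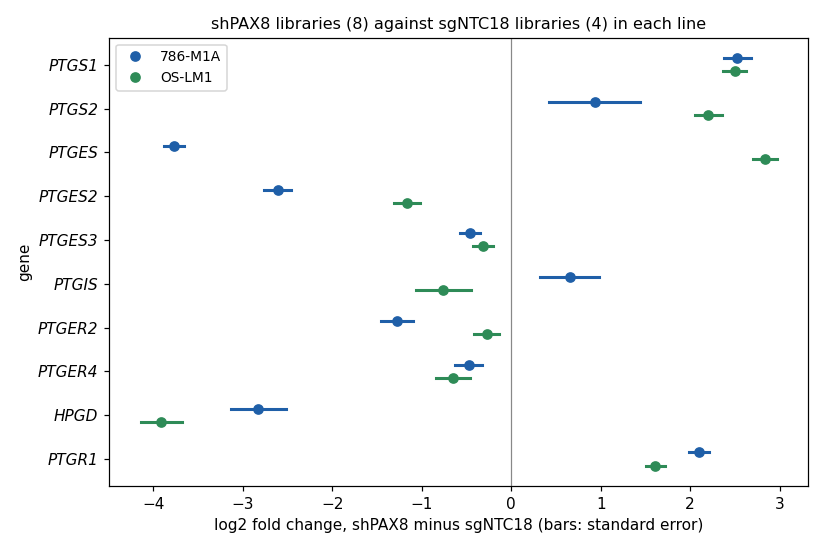
Log2 fold change of each gene between the 8 hairpin libraries and the 4 sgNTC18 libraries of 786-M1A (blue) and OS-LM1 (green), with standard errors. PTGES sits at -3.77 in 786-M1A and 2.83 in OS-LM1, while PTGS1, PTGES2, HPGD and PTGR1 keep their side of 0 in both lines.

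Whether the hairpins agreed was a comparison that the choice of genes had not used, and it was tested. In 786-M1A, 6 of the 10 genes differed between shPAX8-1 and shPAX8-2 at an adjusted p under 0.05, where 48.1% of all genes did. PTGS2, PTGES3, PTGER4 and PTGR1 were higher with shPAX8-1 (24.9% of all genes), and PTGES and PTGES2 lower (23.2%). PTGES differed by a log2 fold change of -0.89 ± 0.15 (SE, adjusted p = 2.44e-05, edgeR), and no shPAX8-1 library reached the lowest shPAX8-2 library. PTGES3 was higher with shPAX8-1 by 0.71 ± 0.13 (SE, adjusted p = 0.000104, edgeR), again without overlap. PTGR1 was higher by 0.48 ± 0.12 (SE, adjusted p = 0.00168, edgeR) and PTGER4 by 0.50 ± 0.18 (SE, adjusted p = 0.0246, edgeR). PAX8 itself was lower with shPAX8-1 than with shPAX8-2 in this line, by -1.18 ± 0.15 (SE, adjusted p = 6.26e-07, edgeR), and its part in these differences was not tested.

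Several of these calls rested on part of the libraries. Without replicates 3 and 4 of 786-M1A shPAX8-1, PTGES and PTGES3 remained past the threshold and the count fell to 2, with PTGR1 at 0.23 (adjusted p = 0.172, edgeR), PTGER4 at 0.41 (adjusted p = 0.175, edgeR) and PTGES2 at -0.25 (adjusted p = 0.396, edgeR). Leaving out shPAX8-1 replicate 4 alone left 3, namely PTGES, PTGES3 and PTGR1. Single libraries of this line whose removal also ended a call were shPAX8-1 replicate 3 and shPAX8-2 replicate 4 for PTGES2 (adjusted p = 0.0572 and 0.0526, edgeR) and for PTGER4 (adjusted p = 0.0677 and 0.0701, edgeR), and shPAX8-2 replicate 3 for PTGER4 (adjusted p = 0.0655, edgeR). Log2 fold changes between the hairpins followed GC content in 786-M1A (Spearman rho -0.525 over 15226 genes), and PTGES2 was at -0.17 (adjusted p = 0.337, edgeR) after the same removal of the GC trend, and PTGES at -0.51 (adjusted p = 0.000139, edgeR). The PTGS2 difference of 1.44 rested on at most 10 counts per library and was lost with the GC trend removed (adjusted p = 0.114, edgeR) and without shPAX8-1 replicate 1 or 4 or shPAX8-2 replicate 1, 2 or 3 (adjusted p from 0.0576 to 0.0806, edgeR).

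In OS-LM1, 3 of the 10 genes differed between the hairpins, where 23.1% of all genes did, and all 3 were lower with shPAX8-1 (11.7% of all genes were lower and 11.4% higher). They were PTGER4 at -1.22 ± 0.24 (SE, adjusted p = 0.000514, edgeR), PTGES2 at -0.58 ± 0.18 (SE, adjusted p = 0.0227, edgeR) and PTGS1 at -0.37 ± 0.13 (SE, adjusted p = 0.0417, edgeR). PTGES was lower with shPAX8-1 by -0.34, with a 95% confidence interval of -0.61 to -0.07 and an adjusted p of 0.0588 in edgeR and 0.0301 in DESeq2. It also passed with OS-LM1 fitted alone (-0.37, adjusted p = 0.0124, edgeR) and with the GC trend removed (-0.25, adjusted p = 0.0191, edgeR). Leaving out any of 4 single libraries, 3 of them of 786-M1A, let it pass as well (adjusted p from 0.0341 to 0.0483, edgeR). PTGS2 differed by 0.27, with an interval of -0.05 to 0.59, and PTGES3 by -0.04, with an interval of -0.32 to 0.23. PAX8 differed between the hairpins in this line by -0.02 (interval -0.31 to 0.27). Leaving out shPAX8-1 replicate 1, shPAX8-2 replicate 1 or shPAX8-2 replicate 3 of OS-LM1 left PTGER4 as the single call. The PTGS1 call was also lost without shPAX8-1 replicate 3 or shPAX8-2 replicate 4 (adjusted p = 0.109 and 0.0737, edgeR) and with no filter beyond 1 count (-0.37, adjusted p = 0.062, edgeR), and the PTGES2 call without shPAX8-1 replicate 4 (adjusted p = 0.0638, edgeR).

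The difference between the hairpins itself differed between the lines for 3 of the 10 genes, where 27.2% of all genes did (12.7% higher and 14.5% lower in OS-LM1). PTGER4 was higher with shPAX8-1 in 786-M1A and lower with it in OS-LM1, a difference of -1.72 ± 0.30 (SE, adjusted p = 0.000158, edgeR). PTGES3 differed by -0.75 ± 0.19 (SE, adjusted p = 0.00392, edgeR), the hairpins passing the test in 786-M1A (0.71) and not in OS-LM1 (-0.04). PTGES differed by 0.55 ± 0.20 (SE, adjusted p = 0.0362, edgeR), and that call was lost with the GC trend removed (0.26, adjusted p = 0.131) and without replicates 3 and 4 of 786-M1A shPAX8-1 (0.37, adjusted p = 0.243), also in edgeR. It was lost as well on leaving out any of 10 single hairpin libraries (adjusted p from 0.0518 to 0.0985, edgeR), which were shPAX8-1 replicates 3 and 4 and shPAX8-2 replicates 1, 2 and 4 of 786-M1A, and shPAX8-1 replicates 2 and 4 and shPAX8-2 replicates 1, 2 and 4 of OS-LM1. The construct difference of PTGES was small beside its difference between the lines.

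**Figure D3:**
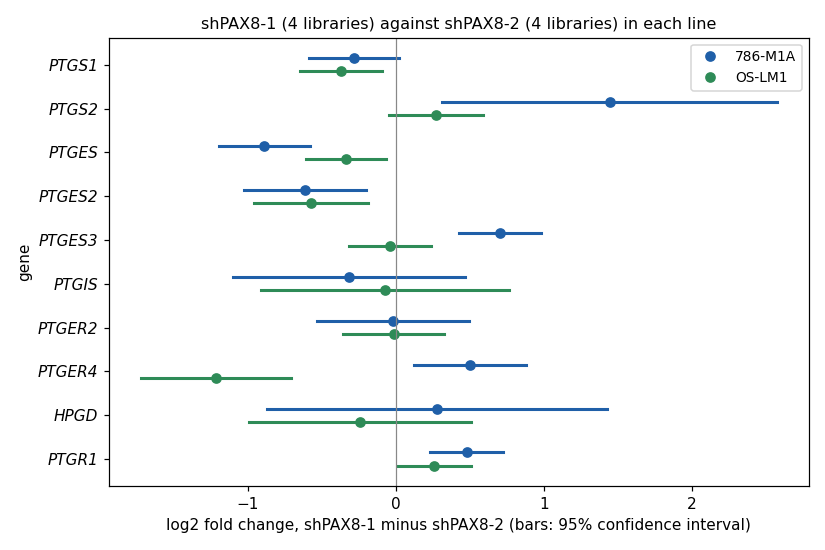
Log2 fold change between shPAX8-1 and shPAX8-2 (4 libraries each) for the 10 genes in 786-M1A (blue) and OS-LM1 (green), with 95% confidence intervals. PTGER4 lies at 0.50 in 786-M1A and -1.22 in OS-LM1, and PTGES lies below 0 in both lines.

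The lines were also compared within each kind of construct, with PTGES left out as its line pattern had led to the choice. Of the other 9 genes, 6 differed between OS-LM1 and 786-M1A in the sgNTC18 libraries, where 63.0% of all genes did (32.0% higher and 31.0% lower in OS-LM1). PTGS2 was higher in OS-LM1 by 7.25 ± 0.28 (SE, log2, adjusted p = 4.63e-18, edgeR), PTGS1 by 1.46 ± 0.17 (SE, adjusted p = 2.23e-08, edgeR), PTGER2 by 1.93 ± 0.17 (SE, adjusted p = 2.6e-10, edgeR) and HPGD by 2.32 ± 0.26 (SE, adjusted p = 1.77e-08, edgeR). The PTGS2 value rested on 0 to 9 counts in the 786-M1A libraries, and was 6.72 without 786-M1A sgNTC18 replicate 3 and 8.49 without replicate 4. Both lie further from 7.25 than the SE of that value. PTGER4 was lower in OS-LM1 by -2.73 ± 0.19 (SE, adjusted p = 1.7e-12, edgeR) and PTGES2 by -0.89 ± 0.17 (SE, adjusted p = 5.39e-05, edgeR). The main prostaglandin E2 receptor transcript was thus PTGER4 in 786-M1A (7.18 against 2.2 TPM for PTGER2) and PTGER2 in OS-LM1 (8.13 against 1.02 TPM for PTGER4). PTGES3 differed by 0.16 (95% interval -0.11 to 0.44), PTGR1 by 0.23 (-0.03 to 0.48) and PTGIS by 0.43 (-0.33 to 1.19), without passing the test.

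In the hairpin libraries all 9 genes differed between the lines, where 83.1% of all genes did (41.7% higher and 41.5% lower in OS-LM1). PTGS2, at 1 to 10 counts per 786-M1A hairpin library, was again the furthest apart. It was higher in OS-LM1 by 8.52 ± 0.19 (SE, adjusted p = 6.45e-24, edgeR), a value that rested on those few counts. PTGER2 was higher by 2.93 ± 0.14 (SE, adjusted p = 1.64e-16, edgeR) and PTGER4 lower by -2.90 ± 0.15 (SE, adjusted p = 6.47e-16, edgeR), so the receptors kept their order. PTGS1 was higher in OS-LM1 by 1.43 (adjusted p = 2.8e-13, edgeR). HPGD, at 0 to 6 counts per 786-M1A hairpin library, was higher in OS-LM1 by 1.24 (adjusted p = 0.000826, edgeR). PTGIS was lower in OS-LM1 by -0.98 (adjusted p = 0.00184, edgeR). PTGES2 was higher in OS-LM1 by 0.55 ± 0.13 (SE, adjusted p = 0.000495, edgeR), opposite to the sgNTC18 libraries, and by 0.89 with the GC trend removed. PTGES3 was higher by 0.31 (adjusted p = 0.00383, edgeR), which fell to 0.03 (adjusted p = 0.696) with the GC trend removed, and PTGR1 was lower by -0.26 (adjusted p = 0.00519, edgeR), which became -0.53 with it removed and did not pass without replicates 3 and 4 of 786-M1A shPAX8-1 (-0.16, adjusted p = 0.0588, edgeR).

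A wider list of 46 eicosanoid genes, drawn up with earlier results of these data known, placed the 10 in their pathway. Of these, 35 could be tested between hairpin and sgNTC18 libraries. In 786-M1A 24 of the 35 differed (14 higher and 10 lower with the hairpins), where 69.4% of all genes did (34.5% higher and 34.9% lower), and in OS-LM1 28 of the 35 did (16 higher and 12 lower), where 69.3% did (34.2% higher and 35.1% lower). In both lines 11 were higher, 7 were lower and 4 had opposite directions. The 4 included PTGDS, at 0 to 3 counts per library in OS-LM1, and PTGFR, whose hairpins lay on opposite sides of sgNTC18 there. The share of all genes called in both lines was not computed, so nothing is read from these counts. The median log2 fold change of the 35 genes was -0.02 in 786-M1A and 0.03 in OS-LM1. The 786-M1A count lies near the share of all genes. Genes of this list are named below mostly as the highest and lowest of the same comparison. Their adjusted p-values therefore describe single genes in these libraries and carry no claim about the pathway.

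Upstream of the cyclooxygenases, 3 of 7 tested genes that release arachidonate were higher and 2 lower with the hairpins in 786-M1A, and 3 were higher and 3 lower in OS-LM1. Of all genes, 34.5% were higher and 34.9% lower in 786-M1A, and 34.2% were higher and 35.1% lower in OS-LM1. MGLL, the monoacylglycerol lipase, fell from 340.0 ± 27.1 CPM (SD, n = 4) with sgNTC18 to 85.2 ± 15.2 CPM with shPAX8-1 and 178.5 ± 14.5 CPM with shPAX8-2 in 786-M1A, a log2 fold change of -1.46 ± 0.11 (SE, adjusted p = 4.02e-12, edgeR). It fell by a like amount in OS-LM1, -1.35 ± 0.11 (SE, adjusted p = 2.35e-11, edgeR). The phospholipase gene PLA2G4A, named after its values were seen, rose in OS-LM1 from 0.18 ± 0.12 CPM (SD, n = 4) to 4.02 ± 0.59 CPM with shPAX8-1 and 4.80 ± 1.07 CPM with shPAX8-2, and was at 0.0539 to 0.552 CPM in all 786-M1A libraries.

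Among other prostanoid synthases and reductases, 6 of 12 tested genes were higher and 5 lower in 786-M1A, and 6 were higher and 6 lower in OS-LM1. The shares of all genes were 34.5% higher and 34.9% lower in 786-M1A, and 34.2% higher and 35.1% lower in OS-LM1. AKR1C1, an aldo-keto reductase, rose in 786-M1A from 0.33 ± 0.08 CPM (SD, n = 4) to 14.3 ± 3.8 CPM with shPAX8-1 and 4.08 ± 0.61 CPM with shPAX8-2 (log2 fold change 4.47 ± 0.23 SE, adjusted p = 3.25e-15, edgeR). In OS-LM1 it was at 10.1 ± 0.84, 15.6 ± 3.1 and 12.5 ± 1.3 CPM (SD, n = 4) in the same order of constructs. AKR1C3, which makes prostaglandin F2 from prostaglandin H2, rose in 786-M1A by 1.96 and fell in OS-LM1 by -0.84, a difference of -2.81 ± 0.23 (SE, adjusted p = 9.43e-11, edgeR). The AKR1C genes are near-identical copies whose reads can be split wrongly, so their values are uncertain. GSTM2 rose by 3.58 ± 0.32 (SE, adjusted p = 1.56e-10, edgeR) in 786-M1A, and GSTM3, also a glutathione transferase, by 3.79 ± 0.13 (SE, adjusted p = 9.17e-19, edgeR) in OS-LM1. Both genes were called higher in each line. In OS-LM1 GSTM2 went from 2.57 CPM with sgNTC18 to 12.55 and 12.99 CPM with shPAX8-1 and shPAX8-2. GSTM3 went from 10.71 to 37.97 and 37.65 CPM in 786-M1A. The 786-M1A sgNTC18 level of GSTM2 was 0.33 CPM, at 5.27 to 13.88 counts per library. CBR3, a carbonyl reductase, fell in both lines, by -1.50 ± 0.13 (SE, adjusted p = 1.39e-10, edgeR) and -1.84 ± 0.13 (SE, adjusted p = 3.61e-12, edgeR). PTGDS, a prostaglandin D2 synthase, fell in 786-M1A from 7.56 ± 1.16 CPM to 1.26 ± 0.62 CPM with shPAX8-1 and 3.79 ± 0.84 CPM with shPAX8-2 (SD, n = 4). In OS-LM1 PTGDS was at 0 in all sgNTC18 libraries and at 0 to 3 counts in hairpin libraries, which is at or under the floor of 3 counts, so no fold is given although the fit called it.

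Of the other prostanoid receptors and PTGFRN, 4 of 8 could be tested and all 4 differed in each line. Among all genes, 69.4% differed in 786-M1A (34.5% higher and 34.9% lower) and 69.3% in OS-LM1 (34.2% higher and 35.1% lower). PTGFR, the prostaglandin F2 receptor, rose in 786-M1A from 1.41 ± 0.44 CPM (SD, n = 4) to 12.2 ± 2.5 CPM with shPAX8-1 and 9.91 ± 0.56 CPM with shPAX8-2 (log2 fold change 2.93 ± 0.17 SE, adjusted p = 3.19e-14, edgeR). In OS-LM1 it was at 9.92 ± 0.87 CPM with sgNTC18, 15.0 ± 2.0 CPM with shPAX8-1 and 4.22 ± 0.37 CPM with shPAX8-2, so the hairpins lay on opposite sides of sgNTC18. In the lipoxygenase branch, which makes leukotrienes from the same arachidonic acid, 2 of 7 tested genes were higher and 1 lower in 786-M1A, and 4 were higher and 1 lower in OS-LM1. ALOX5AP, the activating protein of arachidonate lipoxygenase, rose in OS-LM1 by 3.46 ± 0.28 (SE, adjusted p = 3.35e-11, edgeR), from 6 to 14 counts per sgNTC18 library. LTB4R, a leukotriene B4 receptor, fell there by -1.73 ± 0.21 (SE, adjusted p = 4.62e-08, edgeR). The transporters SLCO2A1, SLCO3A1 and ABCC4 gave 1 lower call in 786-M1A and 1 higher in OS-LM1, and the 2 further breakdown genes gave none.

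The response differed between the lines for 21 of the 35 genes, where 58.7% of all genes did (29.9% higher and 28.8% lower in OS-LM1). Under the naming rule the genes furthest toward OS-LM1, apart from PTGDS, were ALOX5AP (2.72 ± 0.37 SE, adjusted p = 7.42e-07, edgeR) and GSTM3 (1.97 ± 0.16 SE, adjusted p = 8.08e-11, edgeR). Toward 786-M1A they were AKR1C1 (-3.99 ± 0.27 SE, adjusted p = 2.66e-12, edgeR), PTGFR (-3.25 ± 0.21 SE, adjusted p = 1.01e-12, edgeR) and AKR1C3. None of the 35 reached the 6.60 of PTGES.

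**Figure D4:**
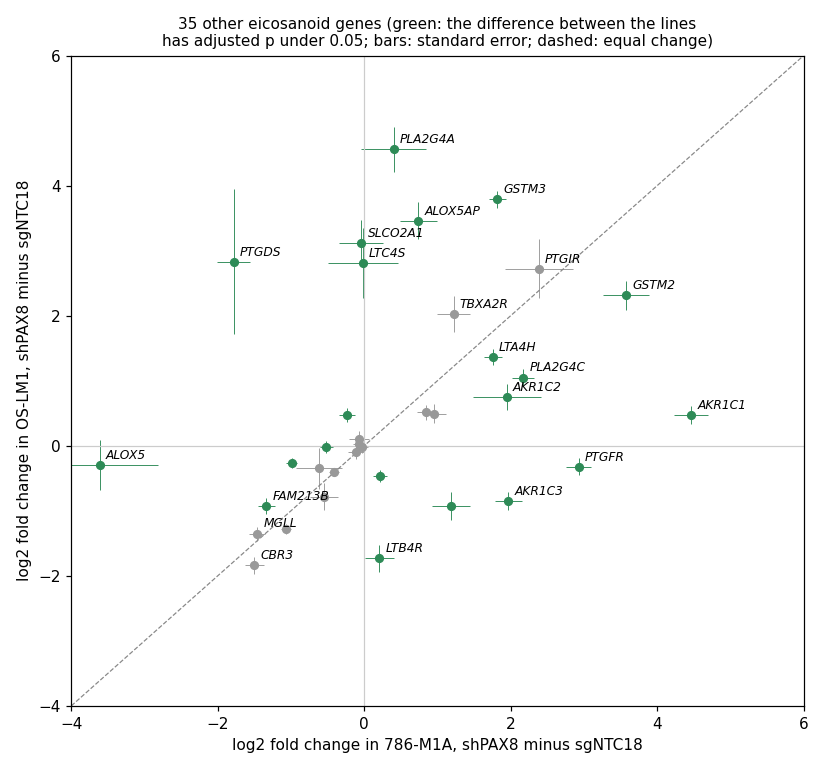
Log2 fold change between hairpin and sgNTC18 libraries of 786-M1A (horizontal axis) and OS-LM1 (vertical axis) for the 35 other eicosanoid genes tested, with standard errors. Green points are the 21 genes whose response differed between the lines, such as PTGFR (2.93 in 786-M1A, -0.32 in OS-LM1); grey points did not pass that test, and the dashed line marks equal change. PTGDS is plotted at its fitted value although its OS-LM1 counts are at or under the floor.

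The genes whose levels followed PTGES most closely over the 24 libraries, among 11848 genes compared, were FKBP15 (Spearman rho 0.955), ARHGEF16 (0.938), PMEPA1 (0.921), DYNC1I1 (0.907) and ASB6 (0.900). The most opposite were EXT2 (-0.907), PRKCH (-0.906), DEPDC7 (-0.903), PRRG1 (-0.894) and SDC2 (-0.882). The libraries share lines and constructs, so these values describe likeness of pattern and carry no test. FKBP15 was at 86.5 CPM in 786-M1A sgNTC18 libraries, at 43.0 and 53.8 CPM with the hairpins, and at 35.8, 59.6 and 57.5 CPM in OS-LM1 in the same order, a far smaller span than that of PTGES.

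ASB6 lies 96.2 kb from PTGES on chromosome 9, which led to a look at the 3 nearest protein-coding genes on each side in RefSeq, chosen after values were seen and not tested. ASB6 was at 36.0 to 49.0 CPM in 786-M1A sgNTC18 libraries and at 13.7 to 29.8 CPM in hairpin libraries, and at 20.5 to 26.3 CPM against 27.9 to 47.5 CPM in OS-LM1. TOR1A, 59.9 kb away on the other side, was at 79.5 to 84.7 CPM against 22.4 to 36.6 CPM in 786-M1A and at 55.0 to 62.5 CPM against 74.2 to 101 CPM in OS-LM1. Both were lower with the hairpins in 786-M1A and higher in OS-LM1 without overlap, in the direction of PTGES but by less. Log2 fold changes were -0.94 and 0.64 for ASB6 and -1.60 and 0.57 for TOR1A. ASB6 was picked for its likeness to PTGES, so its match followed from the choice. Of all tested genes, 3.89% were apart in opposite directions in the lines, in either order. TOR1B, 50.1 kb away, overlapped in 786-M1A and was higher with the hairpins in OS-LM1, and C9orf78 overlapped in both lines. PRRX2, the nearest at 15.7 kb, was at 0 to 0.129 CPM in 786-M1A sgNTC18 libraries and at 0 in the hairpin libraries, which overlap. In OS-LM1 PRRX2 was at 0 to 0.0293 CPM with sgNTC18 and at 0.0401 to 1.15 CPM with the hairpins, higher without overlap. C9orf50 stayed at or under 0.179 CPM and overlapped in both lines.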

How the data were processed

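Poly(A) RNA of 24 samples was sequenced, in 6 groups of 4 libraries named from the sample titles. Per the labels, libraries were made with a stranded kit; the study's methods name other kits. Per the submitters' processing notes, the authors aligned reads with Bowtie2 and RSEM to hg38 and deposited, for each gene, an expected count, TPM and FPKM; software versions, annotation release and strand setting are not given in the sources used here. RSEM splits reads that fit several genes, so near-identical genes are uncertain. FPKM was not used. Deposited TPM values served only to compare genes.

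The expected counts were rounded to whole numbers. Genes were filtered with filterByExpr (minimum count 10), scaled by TMM and fitted in 1 robust quasi-likelihood model of the 6 groups over 24 libraries with edgeR 4.0.16 in R 4.3.3, with Benjamini-Hochberg adjustment over 15665 genes and a threshold of 0.05. CPM values use TMM-scaled totals. Standard errors (SE) of log2 fold changes were not estimated directly. Each is the absolute log2 fold change divided by the square root of the edgeR test's F statistic. At low counts they can be too small. Confidence intervals are 95% intervals from these SE with 18 residual degrees of freedom. The members and lists were chosen with earlier results of these data known. Genes named beyond the 10 members and PAX8 were the 3 highest and 3 lowest of the wider list per comparison (adjusted p under 0.05, mean log2 CPM no lower than 1) and the 5 most and least like PTGES; other names are marked as chosen after values were seen. Alternatives were DESeq2 1.42.0, its size factors, no filter beyond 1 count, each library left out, a replicate block, each line alone, removal of each library's GC trend (GC known for 97.2% of genes tested), either pair of 786-M1A shPAX8-1 libraries left out, and a threshold of 0.01. The code was tested on simulated data. Whether matching replicate numbers marked shared material could not be told. Within a line, deviations of same-numbered libraries of different groups correlated at -0.319 to 0.271. Those of other-numbered libraries correlated at -0.365 to 0.312, a range that covers the first. The confidence intervals include the spread between libraries; the floor of 3 counts covers counting error only.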

Additional observations from a re-analysis of the deposited data

Results flagged for a closer look

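Of 60 sets of 4 libraries examined (10 genes in 6 groups), 1 had a library far from the other 3: PTGES in 786-M1A sgNTC18 replicate 1 was at 100 CPM, with the others at 116 to 117 CPM. Chance gives about 3 such sets in 60.

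The difference between shPAX8-1 and shPAX8-2 was not the same in the lines for PTGES (0.55, adjusted p = 0.0362), PTGES3 (-0.75, adjusted p = 0.00392) and PTGER4 (-1.72, adjusted p = 0.000158), as OS-LM1 minus 786-M1A on the log2 scale in edgeR. Between hairpin and sgNTC18 libraries, PTGES moved in opposite directions in every library of the lines, 6.60 apart on the log2 scale; that difference was not tested, since it led to the choice of the genes. Among the wider eicosanoid genes the response differed between the lines for ALOX5AP (2.72, adjusted p = 7.42e-07), GSTM3 (1.97, adjusted p = 8.08e-11), AKR1C3 (-2.81, adjusted p = 9.43e-11), PTGFR (-3.25, adjusted p = 1.01e-12) and AKR1C1 (-3.99, adjusted p = 2.66e-12) in edgeR, where 58.7% of all genes did so.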

How the results depend on the processing

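The count of genes that differed between the hairpins in 786-M1A was 6, and became 2 without replicates 3 and 4 of shPAX8-1 and 3 at a threshold of 0.01; with single libraries left out it ran from 3 to 6. In OS-LM1 the count was 3, and became 5 without replicates 1 and 2 of 786-M1A shPAX8-1, 5 without its replicates 3 and 4 (PTGES and PTGR1 then passing, with the same OS-LM1 libraries) and 1 at a threshold of 0.01; with single libraries left out it ran from 1 to 4. The other 6 counts stayed within 1.5 times their value under every alternative run. The cause of these changes was not tested. Where the direction reversed, the value had not passed the test. With the GC trend removed these were, on the log2 scale, PTGER2 (0.051) and HPGD (-0.13) between hairpins in 786-M1A. PTGES2 (-0.27) and PTGER2 (-0.081) reversed in the hairpin difference compared between the lines, and PTGES3 (-0.056) between the lines in sgNTC18 libraries. Without replicates 3 and 4 of 786-M1A shPAX8-1 they were PTGER2 (0.29) and HPGD (-0.48) between hairpins in 786-M1A. In the hairpin difference compared between the lines they were PTGES2 (-0.33), PTGER2 (-0.30), HPGD (0.25) and PTGR1 (0.036). Without replicates 1 and 2, PTGS1 (0.13) reversed in that comparison. The PTGER2 hairpin difference compared between the lines, 0.0014, was -0.0004 with DESeq2 size factors, -0.011 with no filter and -0.0041 with DESeq2. With single libraries left out, the value between hairpins in 786-M1A ran from -0.31 to 0.11 for PTGER2, and in OS-LM1 from -0.14 to 0.080 for PTGES3, -0.38 to 0.13 for PTGIS and -0.10 to 0.081 for PTGER2. The hairpin difference compared between the lines ran from -0.19 to 0.022 for PTGS1 and -0.12 to 0.29 for PTGES2. It ran from -0.066 to 0.45 for PTGIS and -0.13 to 0.29 for PTGER2. The main fit did not treat libraries as paired by replicate number. With the replicate block the PTGES hairpin difference compared between the lines lost its call (adjusted p = 0.0536, edgeR). With no filter it was lost too (adjusted p = 0.0566, edgeR). With no filter the PTGS1 hairpin difference in OS-LM1 was lost too (adjusted p = 0.062, edgeR). PTGER4 and PTGES3 kept their calls of a hairpin difference that differed between the lines. Depth limits PTGS2 in 786-M1A (at most 10 counts per library), HPGD in 786-M1A hairpin libraries (0 to 6 counts) and PTGIS (3.84 to 49.2 counts).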
